A study of Mus musculus with 6 samples.

Results

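The endoplasmic reticulum folding and degradation machinery was followed through 38 genes chosen by name: 12 chaperones and their helpers, 9 genes of oxidative folding, 6 of protein translocation, 8 of degradation and 3 of stress sensing. Each gene was read from the probe set annotated to its symbol alone, the brightest on average where several existed, which left 37 of the 38 among 22180 genes in all. Pdia4, a protein disulfide isomerase, was not analysed here because its probe set also carries another gene's symbol. All 6 samples were MC3T3-E1 cells, a mouse line of pre-osteoblasts from the skull vault, grown to confluence and then driven towards osteoblasts until RNA was taken on day 14 with ascorbic acid at 50 µg/ml and β-glycerophosphate at 10 mM. The 3 NU7441 samples received 1 µM of that inhibitor of DNA-PKcs, the catalytic subunit of the DNA-dependent protein kinase, and the 3 DMSO samples received the solvent. The labels name no engineered change in the cells, and both groups shared the differentiation medium.

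Proteins bound for secretion enter the endoplasmic reticulum through the Sec61 channel, fold there with the help of chaperones of the Hsp70 and Hsp90 classes and of the lectins calnexin and calreticulin, and receive disulfide bonds from thiol oxidoreductases. Proteins that fail to fold are passed back through the membrane and degraded, a route built around the ubiquitin ligase encoded by Syvn1. When unfolded proteins build up, the sensors encoded by Ern1, Atf6 and Eif2ak3 start the unfolded protein response, in which the transcription factors XBP1 and ATF6 raise the chaperone and degradation genes. Osteoblasts secrete large amounts of collagen and depend on this machinery.

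Values are log2 array signals, and each difference is the mean of NU7441 minus that of DMSO on this scale, with the standard error from limma. Array medians lay between 6.38 and 6.42, and the correlations between pairs of arrays over genes between 0.992 and 0.996. Whether replicates were separate cultures is not stated in the labels. The p-values therefore describe the spread between these arrays, part of which may be technical, and having 3 arrays in each group limits the precision. The main bone collagen gene Col1a1 was at 13.50 to 13.53 in NU7441 and 13.46 to 13.50 in DMSO, against upper quartiles of the arrays of 8.26 to 8.32. Of the 6 arrays DMSO 2 received the lowest weight from limma's array weights, 0.619, against 0.834 to 1.59 for the others. In whole-cell RNA, a change in the cells present and a change in RNA per cell cannot be told apart.

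Most of the machinery's members had lower mean signals with NU7441, but the size of that difference came largely from 1 of the 3 DMSO arrays. The difference was below 0 in 33 of the 37 members and above it in 4. Its median was -0.14, against 0.00 over all genes, of which 48.7% were lower. limma called 0 of the 37 at an adjusted p under 0.05, as it called 0% of all genes. At an unadjusted p under 0.05 there were 4 members, all lower (Ero1a, Atf6, Dnajb11 and Sec61g), or 10.8%, beside 3.3% of all genes lower and 3.49% higher at that p (6.79% in all). With same-numbered arrays as pairs 5 members reached that p, beside 9.37% of all genes, and with pairs, an intensity trend in the variance and a prior robust to outlying genes 8 did, beside 11.2%. Without DMSO 2 it was 2, Ero1a and Atf6, beside 6.13%. The 3 NU7441 values lay below all 3 DMSO values in 9 members, where 6.64% of all genes did so, and above them in 0 members, where 6.13% did. Both counts depend on DMSO 2, the highest array in 30 of the 37 members but in 23.4% of all genes. Where it is highest, NU7441 cannot lie above all 3 DMSO values, and lying below them depends on DMSO 1 and 3 alone. The shares of all genes are thus no like comparison for either count. The 9 were Hsp90b1, Dnajb9, Dnajb11, Pdia3, Ero1a, Sec61g, Sel1l, Ern1 and Atf6. The highest NU7441 and lowest DMSO values nearly met in Ern1 (9.67 and 9.68), Sel1l (10.36 and 10.37) and Pdia3 (12.19 and 12.21). They were also close in Hsp90b1 (12.32 and 12.34), Dnajb9 (9.53 and 9.55) and Atf6 (10.23 and 10.26). The gap was wider in Ero1a, Dnajb11 and Sec61g.

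DMSO 2 was the highest of the 6 arrays in 30 of the 37 members, 81.1%, against 23.4% of all genes. Against each gene's mean over the 6 arrays, the members' median was -0.08, -0.04 and -0.06 in NU7441 1 to 3, against -0.04, 0.28 and -0.02 in DMSO 1 to 3. Between arrays of the same replicate number the median difference was -0.02 for number 1, -0.35 for number 2 and -0.03 for number 3. Without DMSO 2, 23 of the 37 members were lower, 48.8% of all genes being lower, and the members' median difference was -0.03. The members' median SD was 0.0571 among NU7441 arrays and 0.190 among DMSO arrays, against 0.0935 and 0.110 over all genes. DMSO 2 stood apart in other genes too: 23 measured cell cycle genes had a median of 0.05, -0.22 and 0.31 in NU7441 1 to 3 and of 0.15, -0.48 and 0.16 in DMSO 1 to 3, lowest in DMSO 2. The part of cell cycling in the members' values was not tested.

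Markers of the osteoblast had higher mean signals with NU7441, in the opposite direction to most members. Of 13 osteoblast markers 12 were measured, and all 12 were higher with NU7441 in the mean, with a median difference of 0.40, and 11 were higher without DMSO 2, with a median of 0.35. The exception was Dmp1, at 0.14 (SE 0.61) with all arrays and -0.36 (SE 0.58) without DMSO 2, and highest in DMSO 3 (11.08). limma called 0 of the 12, and 1 (Alpl) had an unadjusted p under 0.05 (8.33%), beside 3.49% of all genes higher at that p. Without DMSO 2 it was 0. The NU7441 values lay above all DMSO values in 2 of the 12, where 6.13% of all genes did so. Against each gene's mean, the markers' median was -0.02, 0.07 and 0.66 in NU7441 1 to 3 and -0.44, -0.29 and 0.13 in DMSO 1 to 3. DMSO 3 was thus above NU7441 1 and 2. In the setting with pairs, trend and robust prior, 5 (Alpl, Sp7, Ibsp, Pth1r and Phex) were called higher, where 0.451% of all genes were called. With pairs alone limma called 0 of all genes, and the pairs themselves were inferred from these array values, since no label states them. Alpl, the alkaline phosphatase of mineralizing cells, was at 9.72, 9.75 and 10.31 in NU7441, against 9.24, 9.14 and 9.76 in DMSO, a difference of 0.54 (SE 0.21, adjusted p = 0.718 in limma). The markers' summed log2 level was 130.5 to 137.5 in NU7441 and 125.7 to 134.0 in DMSO, and the collagen genes Col1a1 and Col1a2 differed by 0.04 each (SE 0.06). Sparc and Postn differed by 0.03 (SE 0.06) and 0.02 (SE 0.07).

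Markers of other cell types varied in level. Of the 5 adipocyte markers 2 were lower with NU7441 and 3 higher, with a median difference of 0.06. Fabp4, a fatty acid carrier of fat cells and macrophages, was at 4.57, 5.04 and 5.00 in NU7441, against 5.65, 6.23 and 5.72 in DMSO, with no overlap. It differed by -0.99 (SE 0.19, adjusted p = 0.598 in limma, called at 0.0211 with pairs, trend and robust prior) and by -0.81 (SE 0.15) without DMSO 2. Adipoq did not exceed 5.38 on any array, and Cebpa, which other cells also express, was at 7.71 to 7.92 in NU7441 and 7.68 to 7.85 in DMSO. The summed level of the adipocyte list was 30.02 to 30.57 in NU7441 and 31.09 to 31.23 in DMSO. Fabp4 had by far the largest difference in that list. Cidec differed by -0.10, and Plin1, Adipoq and Cebpa by 0.13, 0.08 and 0.06. Of the 6 macrophage markers 4 were lower, with a summed level of 36.2 to 36.55 in NU7441 and 36.52 to 36.99 in DMSO. Ptprc was the single one of them below the lower quartile on every array, while Lyz2 was at 7.02 to 7.18 in NU7441 and 7.09 to 7.31 in DMSO, and Cd68 at 7.45 to 7.92 in NU7441 and 7.53 to 8.13 in DMSO, a difference of -0.23 (SE 0.19). The endothelial, skeletal muscle and chondrocyte lists had medians of -0.04, 0.05 and 0.04. The part of any of these markers in the members' values was not tested.

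**Figure D1:**
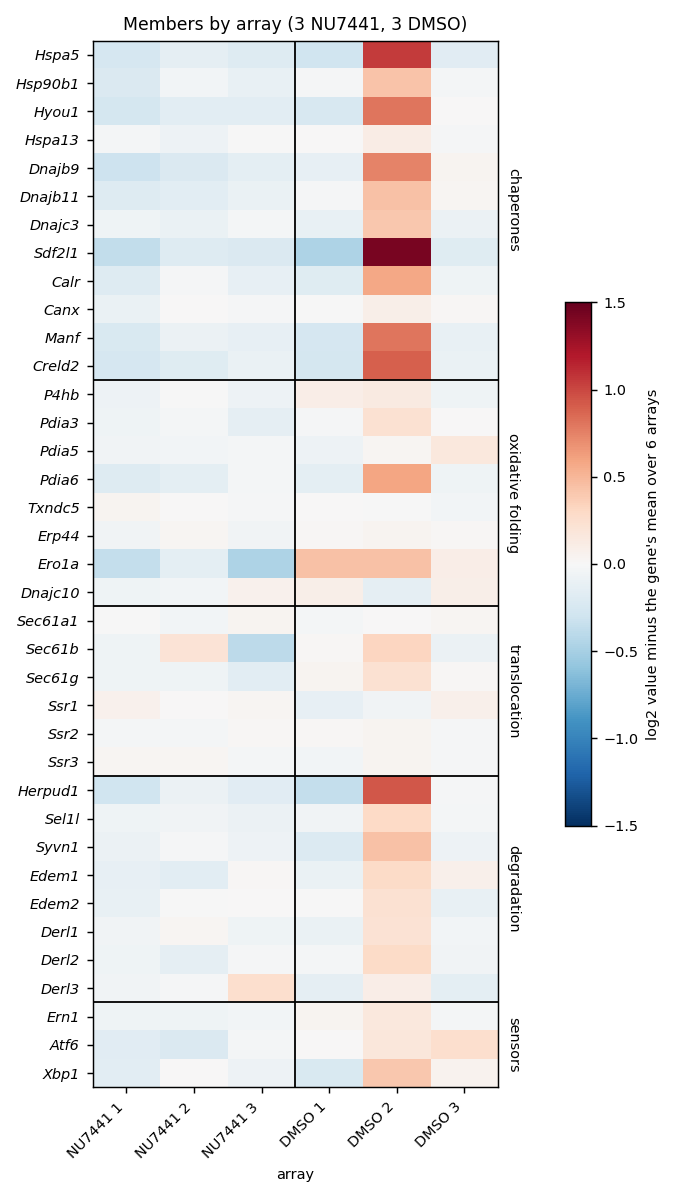
Log2 value of each of the 37 members minus its own mean over the 6 arrays, with arrays in columns (3 NU7441, then 3 DMSO) and members in rows by role; red is above and blue below the gene's mean. The column of DMSO 2 is the reddest for the chaperone and degradation genes, Ero1a is blue in all 3 NU7441 arrays, and of the translocation genes Sec61a1 and the Ssr genes are pale, while Sec61b reaches -0.40 in NU7441 3 and 0.32 in DMSO 2.

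The chaperones carried the largest excess in DMSO 2. All 12 were highest in that array, with a median excess of 0.80 over the mean of the other 5 arrays, against 0.00 over all genes. All 12 were lower with NU7441 in the mean, with a median difference of -0.30, and without DMSO 2 the count was 6 lower and 6 higher with a median of -0.01. None passed the test.

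Hspa5, which encodes the central Hsp70-class chaperone BiP, was at 9.69, 9.80 and 9.75 in NU7441 1 to 3, against 9.64, 10.99 and 9.77 in DMSO 1 to 3. All values but that of DMSO 2 lay within the narrow range of 9.64 to 9.80. The difference was -0.39 (SE 0.33, adjusted p = 0.849 in limma) and 0.04 (SE 0.08) without DMSO 2. Sdf2l1, part of a BiP complex that slows the clumping of unfolded proteins, was at 9.23, 9.40 and 9.38 in NU7441, against 9.13, 11.02 and 9.42 in DMSO. DMSO 2 was thus 3.26-fold above the mean of the other arrays in signal, the largest such excess among the members, and the difference of -0.52 (SE 0.45) became 0.06 (SE 0.11) without it. The secreted stress proteins Creld2 and Manf followed the same course. Creld2 was at 10.23, 10.31 and 10.38 in NU7441, against 10.22, 11.38 and 10.38 in DMSO, and the excess of DMSO 2 was 2.11-fold for Creld2 and 1.95-fold for Manf. Hyou1, the large Hsp70-class chaperone that also acts as a nucleotide exchange factor for BiP, was at 9.65, 9.75 and 9.76 in NU7441, against 9.67, 10.72 and 9.92 in DMSO. Its difference was -0.38 (SE 0.25) with all arrays and -0.08 (SE 0.10) without DMSO 2.

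The J-domain co-chaperones, which stimulate the ATPase of BiP, did not all behave alike. Dnajb11 was at 9.35, 9.38 and 9.44 in NU7441, against 9.53, 9.97 and 9.57 in DMSO, and Dnajb9 at 9.36, 9.45 and 9.53 in NU7441, against 9.55, 10.41 and 9.71 in DMSO. In both the groups did not overlap, the nearest Dnajb9 values being 9.53 in NU7441 3 and 9.55 in DMSO 1. Dnajb11 differed by -0.30 (SE 0.12, adjusted p = 0.728 in limma) and by -0.16 (SE 0.07) without DMSO 2. Dnajb9 differed by -0.44 (SE 0.21, adjusted p = 0.764) and by -0.18 (SE 0.09) without it. Dnajc3, which also restrains the kinase encoded by Eif2ak3, differed by -0.14 (SE 0.14) and by 0.03 (SE 0.07) without DMSO 2. Hsp90b1, the Hsp90-class chaperone of the compartment, was at 12.15, 12.32 and 12.25 in NU7441, against 12.35, 12.79 and 12.34 in DMSO, a difference of -0.25 (SE 0.13), and of -0.10 (SE 0.08) without DMSO 2. Its groups did not overlap either, although NU7441 2 and DMSO 3 were nearly level.

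Of the lectin chaperones, which hold glycoproteins during folding, calreticulin and calnexin parted. Calr had an excess of 0.70 in DMSO 2 and Canx of 0.11, and they differed by -0.22 (SE 0.19) and -0.07 (SE 0.07) between the groups. Without DMSO 2 Calr differed by 0.01 (SE 0.08) and Canx by -0.04 (SE 0.07). Hspa13, an Hsp70-class protein of the microsomes, was as flat as Canx, with an excess of 0.13 and a difference of -0.07 (SE 0.07), or -0.03 (SE 0.07) without DMSO 2.

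Because the members with the largest excess in DMSO 2 included well-known targets of ATF6 and XBP1, the promoters were searched for the endoplasmic reticulum stress response element (ERSE), the letters CCAAT and CCACG with 9 bases of any kind between them, which ATF6 and XBP1 bind together with the factor NF-Y. The windows were the 250 bases before and 50 after each annotated start in RefSeq (GRCm38.p6), read on both strands, and 30 of the 37 measured members had at least 1. The ERSE letters were in 9 of these 30 members (30%), Calr, Canx, Creld2, Derl3, Dnajc3, Hsp90b1, Hspa5, Pdia6 and Syvn1, against 0.171% of the 16990 tested genes with a promoter and 0.119% of all listed promoters. The members were chosen by name and include known targets of these factors. Their high share may therefore come from that choice, and it is no result about these arrays. ERSE-II, which is ATTGG, any 1 base and CCACG, was in Dnajb11 and Herpud1 (0.0365% of all listed promoters), and the XBP1 element TGACGTGG in Txndc5 (0.676%). Both stress elements share the letters CCACG, so they can overlap. The promoter of Hspa5 is shown because Hspa5 had the largest excess in DMSO 2 among the 9, followed by shorter stretches of 5 other members, with the matches in capitals and the rest in lower case. A match written as CGTGG first is the element on the opposite strand.
Hspa5 (chr2:34771840-34772139, + strand): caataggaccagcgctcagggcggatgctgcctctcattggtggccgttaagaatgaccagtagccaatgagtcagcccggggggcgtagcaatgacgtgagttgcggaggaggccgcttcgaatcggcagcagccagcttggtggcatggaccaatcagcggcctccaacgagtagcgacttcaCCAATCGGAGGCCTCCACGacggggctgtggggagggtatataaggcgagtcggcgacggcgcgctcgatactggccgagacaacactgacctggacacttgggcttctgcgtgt
Creld2 (chr15:88819396-88819695, + strand, part): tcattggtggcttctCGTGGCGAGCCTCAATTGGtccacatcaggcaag
Pdia6 (chr12:17266339-17266638, + strand, part): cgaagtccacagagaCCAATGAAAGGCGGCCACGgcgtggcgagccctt
Syvn1 (chr19:6046326-6046625, + strand, part): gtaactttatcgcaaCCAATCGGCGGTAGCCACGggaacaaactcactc
Canx (chr11:50325624-50325923, - strand, part): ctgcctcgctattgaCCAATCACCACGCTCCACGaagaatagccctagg
Herpud1 (chr8:94386179-94386478, + strand, part, ERSE-II): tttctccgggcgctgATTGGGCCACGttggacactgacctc
The coordinates are those of the whole 300-base window. The 9 members with ERSE letters had a median excess in DMSO 2 of 0.53 and a range from 0.11 in Canx to 1.26 in Hspa5. The 21 with a listed promoter and no such letters had a median of 0.28, from -0.17 in Dnajc10 to 1.70 in Sdf2l1, so the ranges overlapped. Dnajb11 and Herpud1, with ERSE-II, are among these 21. Most of the 9 were chaperones, so the medians do not separate the letters from the role. Chaperones with the letters ran from 0.11 in Canx to 1.26 in Hspa5. Those with a listed promoter and no such letters were at 0.52 (Dnajb11), 0.89 (Dnajb9) and 1.70 (Sdf2l1). Among all 29 tested genes with ERSE letters, members included, DMSO 2 was the highest array in 13 (44.8%), with a median excess of 0.12, against 23.9% and 0.00 among the 16961 genes without them. Of the 13, 8 were members, and among the 20 other genes with ERSE letters DMSO 2 was the highest in 5 (25%), with a median excess of 0.01.

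**Figure D2:**
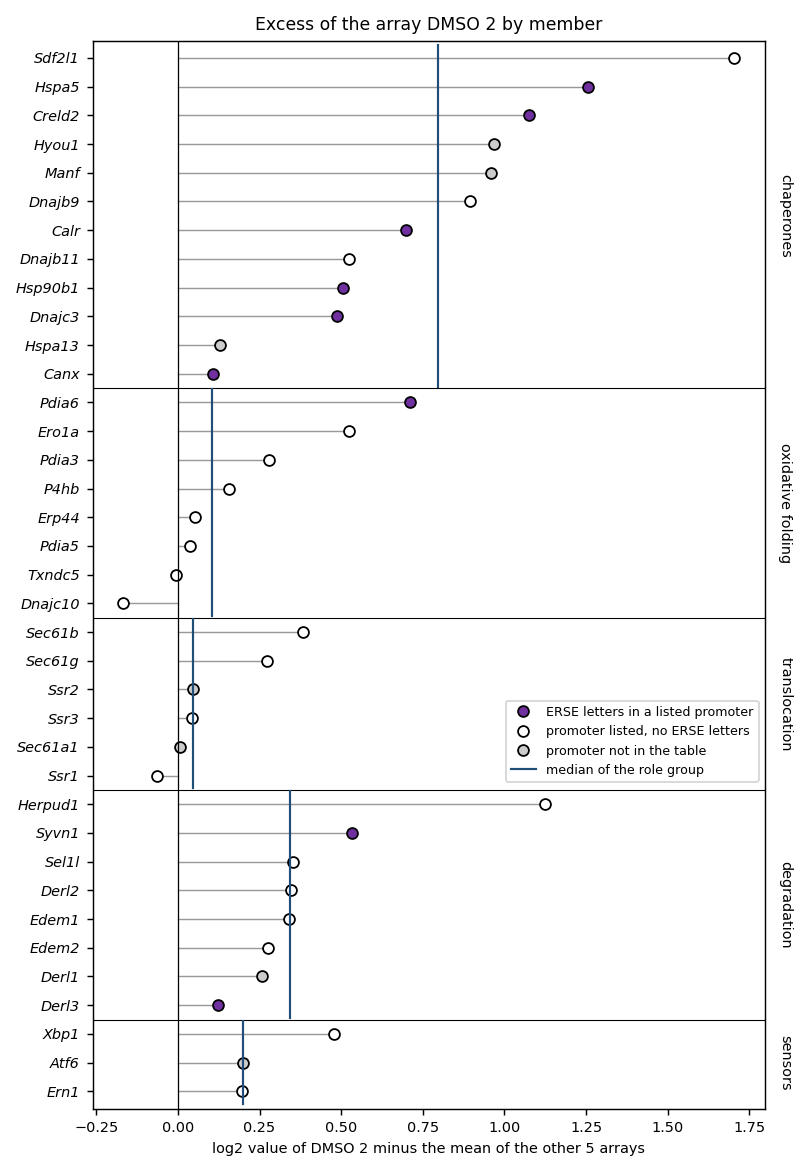
Log2 value of DMSO 2 minus the mean of the other 5 arrays for each of the 37 members, in rows by role, with the median of each role group as a vertical line. The chaperones and Herpud1 reach the highest values, up to 1.70 in Sdf2l1, the translocation genes lie between -0.06 and 0.38, and filled purple points, members with ERSE letters, are spread from 0.11 to 1.26.

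Among the genes of oxidative folding Ero1a stood apart, being lower in every NU7441 array and not only relative to DMSO 2. Ero1a encodes the oxidase that passes electrons from protein disulfide isomerases to oxygen, and in mammals it is also known as a gene induced by low oxygen. It was at 11.07, 11.28 and 10.96 in NU7441, against 11.86, 11.86 and 11.52 in DMSO. The groups did not overlap, and DMSO 1 was as high as DMSO 2. The difference was -0.64 (SE 0.12, 95% interval -0.94 to -0.35), a 1.56-fold higher signal in DMSO, and it ranked number 40 by p among all genes. It did not pass over all genes (adjusted p = 0.598 in limma, unadjusted p = 0.00118), and without DMSO 2 the difference was -0.59 (SE 0.14). In the setting with pairs, trend and robust prior, Ero1a was called lower (adjusted p = 0.00467 in limma), among the 0.451% of all genes called in that setting, and with pairs alone it was not (adjusted p = 0.318). A second, dimmer probe set of Ero1a was at 8.04, 8.35 and 7.87 in NU7441, against 8.65, 9.16 and 8.34 in DMSO, a difference of -0.63 (SE 0.21), with NU7441 2 level with DMSO 3.

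The listed promoter of Ero1a held none of the 3 stress elements. It held once the letters ACGTG, a form of the core bound by hypoxia-inducible factors, here on the opposite strand as CACGT in capitals. Other forms of that core were not searched and are not marked. It is shown because Ero1a had the smallest p of the members.
Ero1a (chr14:45318523-45318822, - strand): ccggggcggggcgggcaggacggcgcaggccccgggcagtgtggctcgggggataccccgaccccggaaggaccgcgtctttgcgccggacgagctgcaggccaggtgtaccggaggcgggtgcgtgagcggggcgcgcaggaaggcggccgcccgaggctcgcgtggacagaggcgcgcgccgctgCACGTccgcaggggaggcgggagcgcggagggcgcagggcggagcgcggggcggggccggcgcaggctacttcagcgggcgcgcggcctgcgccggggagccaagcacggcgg
These 5 letters are common: 15 of the 30 members and 23.8% of the tested genes with a listed promoter held them (19.6% of all listed promoters), and each XBP1 element contains them. The presence of the letters is a description and not a site.

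The disulfide isomerases themselves differed less. P4hb, the isomerase that is also the beta subunit of collagen prolyl hydroxylase, was at 12.32, 12.39 and 12.32 in NU7441, against 12.50, 12.53 and 12.33 in DMSO, a difference of -0.11 (SE 0.08), or -0.07 (SE 0.08) without DMSO 2. Pdia3, which works with calnexin and calreticulin, was at 12.16, 12.19 and 12.09 in NU7441, against 12.21, 12.45 and 12.22 in DMSO. The groups did not overlap, though 12.19 in NU7441 2 and 12.21 in DMSO 1 were close. Pdia3 differed by -0.15 (SE 0.09), and by -0.07 (SE 0.07) without DMSO 2. Pdia6 followed the chaperones, at 10.05, 10.10 and 10.23 in NU7441 and 10.11, 10.85 and 10.19 in DMSO, and its difference of -0.25 (SE 0.19) was -0.02 (SE 0.08) without DMSO 2. Pdia5 differed by -0.08 (SE 0.08), Erp44, which retains the oxidase in the compartment, by -0.05 (SE 0.06), and Txndc5 by 0.02 (SE 0.06). Dnajc10, a J-domain reductase that opens disulfides before degradation, was the member with the lowest value in DMSO 2 relative to the other arrays, at -0.17, and differed by -0.02 (SE 0.09) between the groups, or by -0.10 (SE 0.07) without that array. Of the 8 measured genes of this role 7 were lower with NU7441 both with and without DMSO 2, with medians of -0.10 and -0.07; with quantile normalization Dnajc10 was at 0.01 and thus not among them.

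**Figure D3:**
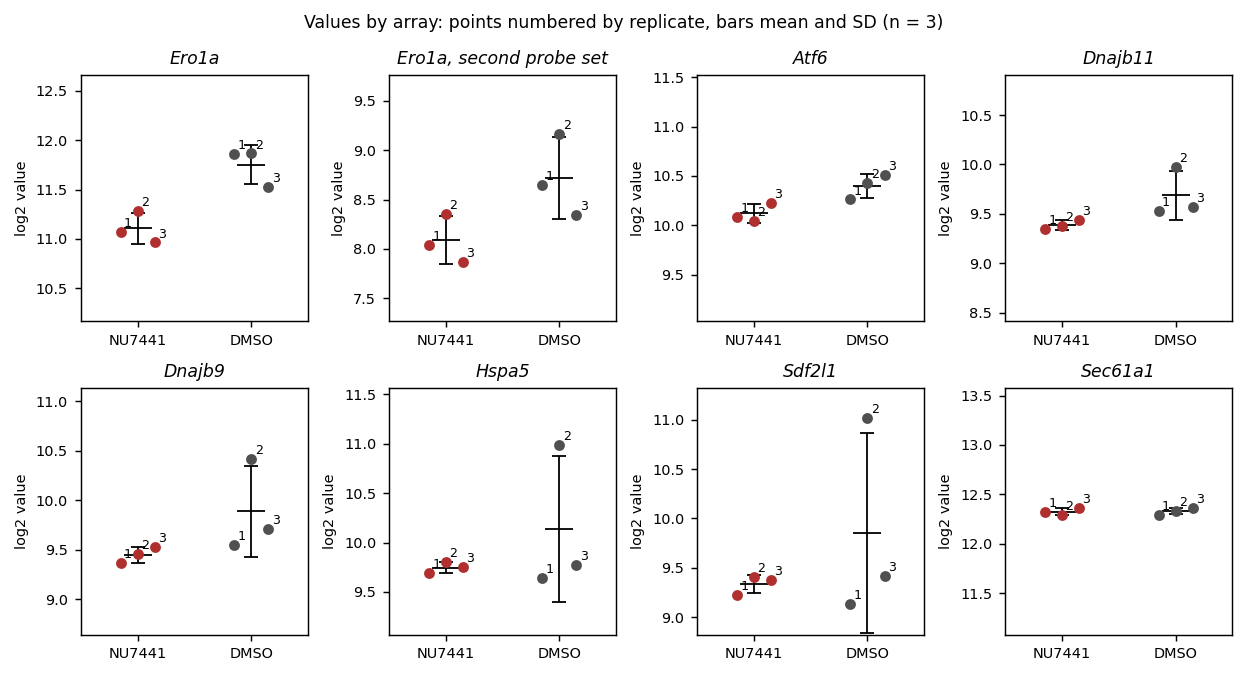
Log2 values of 7 members and of the second probe set of Ero1a by array, NU7441 left and DMSO right, with points numbered by replicate and bars for the mean and SD (n = 3 each); every panel spans the same height on the log2 axis. The groups do not overlap for the first probe set of Ero1a, Atf6, Dnajb11 and Dnajb9, though only narrowly for Atf6 and Dnajb9. In the second probe set of Ero1a, NU7441 2 is level with DMSO 3. In Hspa5 and Sdf2l1 DMSO 2 alone is high, and in Sec61a1 all 6 values lie together.

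The pore and the translocon-associated genes varied little. Sec61a1, the pore subunit of the channel, was at 12.32, 12.29 and 12.37 in NU7441, against 12.29, 12.33 and 12.36 in DMSO, a difference of 0.00 with a 95% interval of -0.15 to 0.14. The translocon-associated genes Ssr1, Ssr2 and Ssr3 differed by 0.07 (SE 0.07), -0.03 (SE 0.06) and 0.02 (SE 0.06). Without DMSO 2 these were 0.06, -0.02 and 0.04. The intervals with all arrays reached at most 0.24 in either direction, that of Ssr1. The small channel subunits were less even. Sec61g was at 10.97, 10.97 and 10.87 in NU7441, against 11.07, 11.26 and 11.05 in DMSO, so that the groups did not overlap, and differed by -0.19 (SE 0.08, adjusted p = 0.733 in limma), or by -0.12 (SE 0.07) without DMSO 2. Sec61b was at 7.64, 7.91 and 7.31 in NU7441, against 7.72, 8.02 and 7.62 in DMSO, a difference of -0.17 (SE 0.17) with groups that overlapped, and of -0.05 (SE 0.17) without DMSO 2. The median of the 6 genes was -0.02 with all arrays and -0.01 without DMSO 2.

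The degradation genes followed the chaperones at smaller size, with 7 of 8 highest in DMSO 2 and a median excess of 0.34. Herpud1, a membrane protein that helps assemble the degradation complex, was at 10.08, 10.29 and 10.21 in NU7441, against 10.03, 11.32 and 10.36 in DMSO. Its difference of -0.38 (SE 0.30) was 0.00 (SE 0.12) without DMSO 2. Sel1l, the partner of the ligase encoded by Syvn1, was at 10.35, 10.36 and 10.33 in NU7441, against 10.37, 10.71 and 10.38 in DMSO, which did not overlap although DMSO 1 and 3 were nearly level with the NU7441 arrays. Syvn1 itself differed by -0.11 (SE 0.16) and by 0.08 (SE 0.08) without DMSO 2. Edem1, a lectin that hands mannose-trimmed glycoproteins to degradation, was at 10.53, 10.49 and 10.66 in NU7441, against 10.55, 10.93 and 10.73 in DMSO, and differed by -0.17 (SE 0.11), while its relative Edem2 differed by -0.08 (SE 0.10). Without DMSO 2 these were -0.08 (SE 0.09) and 0.02 (SE 0.08). The derlins, membrane proteins of the exit route, were uneven. Derl2 was at 8.80, 8.73 and 8.84 in NU7441, against 8.83, 9.15 and 8.81 in DMSO, a difference of -0.14 (SE 0.10), and Derl1 differed by -0.05 (SE 0.09). Without DMSO 2 Derl2 was at -0.03 (SE 0.07) and Derl1 at 0.04 (SE 0.07). Derl3 was at 5.56, 5.60 and 5.87 in NU7441, against 5.49, 5.73 and 5.48 in DMSO, a difference of 0.11 (SE 0.11), or 0.19 (SE 0.11) without DMSO 2, at signals not far above the arrays' lower quartiles, where its size is uncertain. The median of the 8 genes was -0.13, and 0.01 without DMSO 2.

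**Figure D4:**
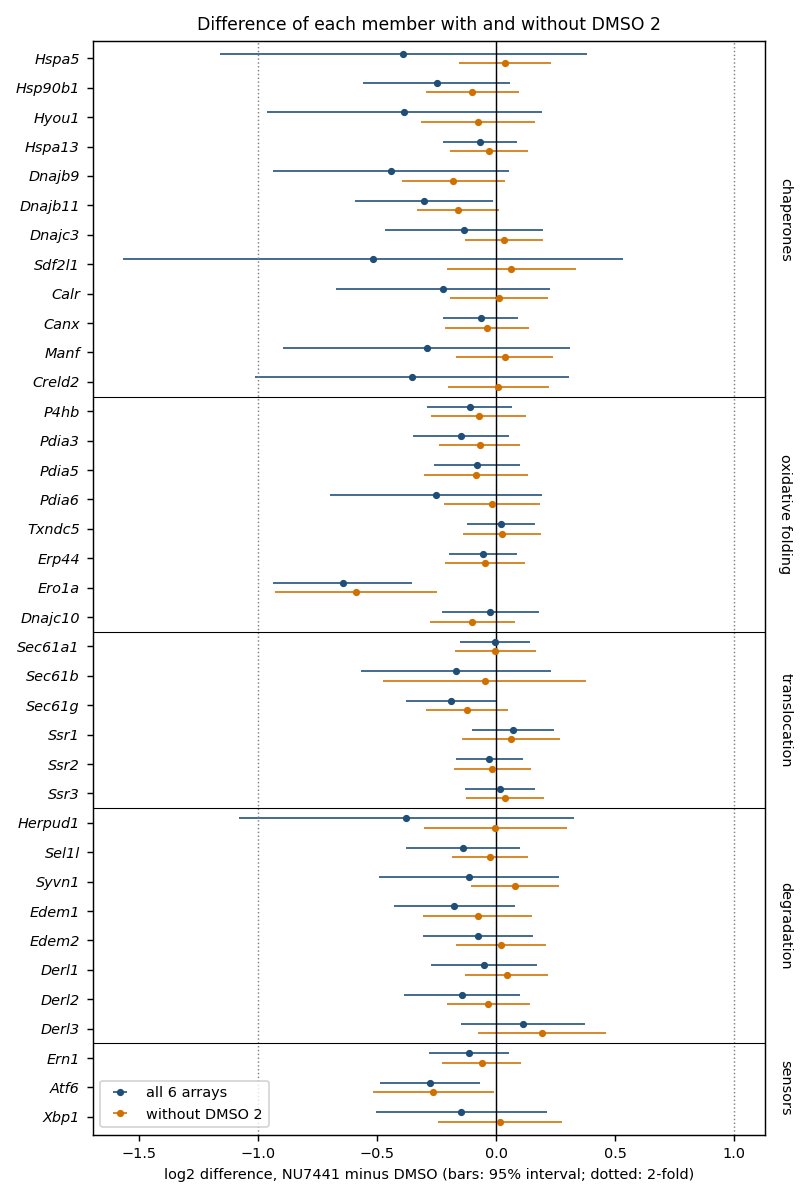
Log2 difference, NU7441 minus DMSO, with its 95% interval for each of the 37 members, in blue from all 6 arrays and in orange without DMSO 2; dotted lines mark 2-fold. The intervals of Hspa5, Sdf2l1, Creld2 and Herpud1 cross the 2-fold line with all arrays and none does without DMSO 2, while the intervals of Ero1a and Atf6 lie below 0 in both.

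The 3 genes of stress sensing, Atf6, Ern1 and the transcription factor gene Xbp1, also were not alike. Atf6, whose product is cut in the Golgi to free a transcription factor, was at 10.09, 10.05 and 10.23 in NU7441, against 10.26, 10.43 and 10.51 in DMSO. The groups did not overlap, and here DMSO 3 and not DMSO 2 was the highest array. The difference was -0.28 (SE 0.09, adjusted p = 0.698 in limma) and -0.26 (SE 0.10) without DMSO 2. Ern1, which encodes the kinase and RNase that splices the Xbp1 messenger, was at 9.65, 9.65 and 9.67 in NU7441, against 9.75, 9.88 and 9.68 in DMSO, a difference of -0.11 (SE 0.07), or -0.06 (SE 0.07) without DMSO 2. Xbp1 was at 11.16, 11.32 and 11.23 in NU7441, against 11.08, 11.71 and 11.36 in DMSO, and its difference of -0.15 (SE 0.15) was 0.02 (SE 0.11) without DMSO 2. The array values do not separate the spliced from the unspliced Xbp1 messenger here, and cleavage of ATF6 is not a transcript measure.

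For 33 of the 37 members the 95% interval lay within 2-fold in both directions, against 99.2% of all genes. The exceptions were Hspa5, Sdf2l1, Creld2 and Herpud1, whose lower bounds were -1.16, -1.57, -1.01 and -1.08.

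Further genes of the pathway lay near the median of all genes. Of 148 further symbols of endoplasmic reticulum signalling, glycosylation, folding, translocation, degradation and shape, 136 were measured, 80 lower and 56 higher with NU7441, with a median difference of -0.01. limma called 0 of them in either direction, with 3 lower (2.21%) and 3 higher (2.21%) at an unadjusted p under 0.05, against 3.3% and 3.49% of all genes. DMSO 2 was the highest array in 52 (38.2%), against 23.4% of all genes. The genes named from each list are those with its smallest p, not its largest difference. Genes of glycosylation and the lectin cycle had a median of -0.01 (11 of 20 lower), with Dad1 at 0.15 (SE 0.09) and Stt3b at -0.12 (SE 0.07), both of the oligosaccharyltransferase. Genes of collagen and proline folding had a median of 0.00 (6 of 10 lower), with the prolyl isomerases Fkbp14 at 0.18 (SE 0.06) and Fkbp9 at 0.10 (SE 0.06). Other thiol enzymes had a median of -0.04 (10 of 16 lower), with Vkorc1, of vitamin K recycling, at 0.14 (SE 0.09) and Txndc16 at 0.13 (SE 0.08). Other chaperone helpers had a median of 0.01 (6 of 14 lower), with Cdnf, a relative of Manf, at 0.36 (SE 0.11) and Cnpy4 at 0.12 (SE 0.07). Genes of targeting, translocation and signal cleavage had a median of -0.01 (11 of 18 lower), with the signal peptidase genes Sec11c at -0.30 (SE 0.13) and Spcs3 at -0.24 (SE 0.12). Other degradation genes had a median of -0.04 (19 of 28 lower), with the membrane scaffolds Erlin2 at -0.23 (SE 0.06) and Erlin1 at -0.26 (SE 0.10). Genes of reticulum shape and its autophagy had a median of 0.02 (5 of 12 lower), with the autophagy receptors Ccpg1 at 0.20 (SE 0.08) and Retreg1 at -0.21 (SE 0.11).

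The stress signalling genes outside the members had a median of -0.11 (12 of 18 lower). Ddit3, the stress factor CHOP, was at 9.67, 9.68 and 9.26 in NU7441, against 9.42, 11.13 and 10.11 in DMSO, and Atf3 at 8.22, 8.42 and 8.19 in NU7441, against 8.09, 9.17 and 8.88 in DMSO. Here DMSO 3 as well as DMSO 2 lay above all 3 NU7441 arrays and DMSO 1 did not, whereas in Hspa5 and Sdf2l1 DMSO 3, at 9.77 and 9.42, was level with the highest NU7441 arrays. Trib3 and Chac1, targets of ATF4 and CHOP named after their values were seen, likewise had DMSO 2 and 3 above all NU7441 arrays and DMSO 1 below them. Trib3 was at 7.59, 7.75 and 7.83 in NU7441, against 7.18, 9.18 and 8.58 in DMSO. Eif2ak3, another sensor gene of the response, differed by 0.03 (SE 0.06), and its value in DMSO 2, 9.12, lay within the range of the other arrays.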

How the data were processed

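Total RNA of whole cells was measured on 6 Affymetrix arrays, 3 per group, and the labels gave the groups and replicate numbers. The authors deposited 1 log2 value for each of 41345 probe sets and each array. The log2 scale was inferred from the range of the values. How the authors corrected, summarised and normalized the signals is not given in the sources used here. The platform annotation gave 1 symbol for 23521 probe sets, several for 1814 and none here for 16010. The probe set with the highest mean was kept per gene, with no filter on level, which left 22180 genes. No column belonged to another sample (0).

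The fit used limma 3.58.1 (R 4.3.3) with a single term for group. Tests were two-sided and adjusted by Benjamini-Hochberg across the whole table, with a threshold of 0.05, after the test was tried on simulated data. The members, the lists of further genes and the markers were chosen with earlier results of these data known. Array values were given for up to 5 members of each role with the smallest p, for the sensors, Hspa5 and members at a stated extreme, and up to 2 genes with the smallest p were named per further list. Sec61a1, with the largest p of the translocation genes, was shown outside this rule. The measure of excess in DMSO 2 and the promoter search were chosen after the values were seen.

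Both groups carry the numbers 1 to 3. Over genes, the deviations of same-numbered arrays from their group means correlated at 0.149 for number 1, 0.169 for number 2 and 0.339 for number 3. Each was over 0.1, while arrays of unlike numbers correlated at -0.246 to 0.0938. The numbers were therefore taken to pair the arrays in the alternatives with a replicate block. This rests on the data, since no label states a pairing. The main fit, with its differences, standard errors and p-values, leaves the pairing out. The replicate block was an alternative, as were the block with an intensity trend and a robust prior, those without the block, quantile normalization, median centring, the upper 75 percent of genes by level, array weights, the mean over the probe sets of a gene, and fits that left out 1 array at a time. Promoter windows are from RefSeq (GRCm38.p6). Plots were made in Python 3.11.15 with matplotlib 3.10.9.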

Additional observations from a re-analysis of the deposited data

How the results depend on the processing

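The number of arrays limits what could be called, and signal over background was not analysed here. Under the replicate block with an intensity trend and a robust prior, 100 genes over all and 1 member, Ero1a (-0.64, adjusted p = 0.00467 in limma), were called, against 0 and 0 otherwise, and 8 members had an unadjusted p under 0.05, against 4. The replicate block alone called 0 genes, gave 5 such members and changed no call. Leaving out each array gave 1 to 6 members at that p (1 without NU7441 2, 2 without DMSO 2, NU7441 1 or NU7441 3), 23 to 33 lower members, and a median over members of -0.20 to -0.03. By role the median ran from -0.44 to -0.01 for chaperones, -0.11 to -0.07 for oxidative folding, -0.02 to -0.01 for translocation, -0.19 to 0.01 for degradation and -0.30, without DMSO 1, to -0.061 for sensors. Over the alternatives that kept all 6 arrays, the sign turned in 3 members with small differences: Dnajc10 (0.0083) and Sec61a1 (0.0026) with quantile normalization, and Ssr3 (-0.0008) with median centring. Without DMSO 2 it turned in 10 members. Over the arrays left out, the difference ran from -0.63 to 0.038 for Hspa5, -0.23 to 0.034 for Dnajc3, -0.88 to 0.064 for Sdf2l1, -0.37 to 0.011 for Calr, -0.49 to 0.036 for Manf, -0.57 to 0.0082 for Creld2, -0.24 to 0.081 for Syvn1, -0.15 to 0.021 for Edem2, -0.11 to 0.044 for Derl1 and -0.30 to 0.018 for Xbp1. It ran from -0.10 to 0.016 for Dnajc10, turned without DMSO 1 or DMSO 3, and from -0.0245 to 0.0135 for Sec61a1, turned without DMSO 3 or NU7441 2. The cause of these turns was not tested beyond the values of DMSO 2 given above. The median of the 136 further genes was -0.01, and 0.00 without DMSO 2, an alternative added after the data were examined. The difference of Ero1a ran from -0.76 to -0.57 and that of Atf6 from -0.35 to -0.22 over the arrays left out.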

Other observations

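Of the members with more than 1 single-symbol probe set, the dimmer probe set of 4 went unused above. That of Derl2 differed by 0.11 (SE 0.09), against -0.14 (SE 0.10) for the one used, so the probe sets disagreed in sign. Those of Ssr1 also did, at -0.03 (SE 0.09) for the dimmer one and 0.07 (SE 0.07) for the one used. The dimmer probe set of Edem1 was at -0.07 (SE 0.06) and that of Sec61b at -0.05 (SE 0.08).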
